A study of Mus musculus with 11 samples.

Results

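The 39 genes described here encode the heat shock chaperones of the cytosol and of the mitochondria, together with the transcription factors that drive the heat shock response and the proteases that degrade misfolded proteins in the mitochondrial matrix. They were chosen as a list of gene symbols by known function. The rule held no measured value, but the choice was made with earlier results of these data known. All 39 were found among the 53801 genes of the deposited tables. Of these, 31 act in the cytosol or nucleus and 8 in the mitochondria. The cytosolic genes comprise 2 heat shock transcription factors, 7 members of the HSP70 and HSP110 families, 5 genes of the HSP90 machine, 6 HSP40 genes, 2 small heat shock protein genes with their partner Bag3, and the 8 subunits of the CCT ring. The mitochondrial genes comprise 5 chaperones and 3 protease subunits. The comparison of interest was that between the 2 compartments.

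Chaperones bind unfolded proteins and let them fold, refold or be passed on for degradation. When unfolded proteins accumulate in the cytosol, HSF1 is released from its chaperones and binds heat shock elements, repeats of the letters GAA in alternating orientation, in the promoters of genes such as Hspa1a, Dnajb1 and Hspb1. Mitochondria keep their own set: mortalin (Hspa9), an HSP70, pulls proteins through the inner membrane and folds them with its HSP40 partner Dnaja3, HSP60 (Hspd1) and HSP10 (Hspe1) form a folding chamber, and the proteases LONP1 and CLPXP remove proteins that fail to fold. The mitochondrial unfolded protein response and the integrated stress response, in which the transcription factor ATF4 acts, can raise part of this set separately from heat shock.

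RNA was sequenced from primary neural stem cells (NSCs) taken from the hippocampus of mouse embryos and kept for 7 days in proliferation medium, with the growth factors EGF and bFGF at 20 ng/ml each and 1% B27, or in differentiation medium, with 2% B27 and neither growth factor. In each medium the cultures received 1 µM 4HBP or the vehicle EtOH, giving 3 libraries with 4HBP and 3 with EtOH in proliferation medium, and 3 with 4HBP and 2 with EtOH in differentiation medium. The sample labels spell 4HBP out as 4-hydroxybenzoic acid and the study's text as 4-hydroxybenzophenone, the study's methods name C57BL/6 mice without tying the NSCs to them, and neither source says that the replicates were separate cultures, so the p-values below measure only the spread between these libraries. No gene was edited, and the EtOH cultures served as controls.

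The libraries held between 20822921 and 23438463 expected counts, at which 3 counts correspond to 0.128 to 0.144 CPM (a gene's count relative to the total of its library). The 7 neural stem cell markers were detected in every group, with a summed level of 4426 to 5366 normalized CPM in proliferation medium and 1681 to 1709 in differentiation medium, and the sum over 6 markers of dividing cells was 429 to 974 and 153 to 206 in the respective media. The 6 oligodendrocyte lineage markers summed to 1563 to 3163 normalized CPM in proliferation medium and 6800 to 7151 in differentiation medium, while 6 neuronal markers summed to 905 to 1059 over all libraries. Microglial markers summed to at most 3.61 normalized CPM and vascular and fibroblast markers to at most 3.48, with the endothelial genes Cldn5 and Cdh5 at 0 in all 4 groups. In proliferation medium the dividing cell sum was 689.5, 800.2 and 429 normalized CPM with 4HBP and 823 to 974 with EtOH, the sum over 6 astrocyte markers was 5933 to 6390 with 4HBP and 7455 to 8176 with EtOH, and the third 4HBP library stood apart from the other two of its group. Fewer cells of a type and less RNA per cell cannot be told apart in such libraries.

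Per length of transcript, in deposited TPM, the chaperone genes were led by the constitutive cytosolic HSP70 gene Hspa8 and by Hsp90ab1, the constitutive HSP90. In the control cultures in proliferation medium, Hsp90ab1 had 1348 ± 120 TPM (SD, n = 3) and Hspa8 had 1103 ± 18.9 TPM, followed by Hsp90aa1, Hspd1 and Hspe1. The inducible HSP70 genes Hspa1a and Hspa1b stood at the bottom of the list in that group, with 0.757 ± 0.281 and 1.14 ± 0.154 TPM. These inducible genes thus lay at the floor of the list in the control cultures, while the mitochondrial folding chamber was among the most abundant chaperone transcripts. About 61.3% of the 40-base words of the Hspa1a transcripts also occur in Hspa1b, so the division of reads between these paralogs is uncertain. Other annotated genes share 41.1% of the words of Hspa8, 44.2% of Hspd1, 49.4% of Hsp90aa1 and 50.6% of Hspb1, against 5.54% for Hspa9, 3.17% for Dnaja3, all with the overlapping gene Vasn, and 0 for Lonp1.

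Promoter sequences of both compartments were searched for the letters of heat shock elements. RefSeq promoters, from 250 bases before to 50 bases after the transcription start (GRCm38.p6), were at hand for 33 of the 39 genes in 43 windows. Hsf1, Hspa8, Hsp90aa1, Hsp90ab1, Cct4 and Hspa9 had no entry. Both strands were searched for 2 facing units, GAANNTTC or TTCNNGAA, and for 3 alternating units at the same spacing. These motifs overlap, since each 3-unit match contains both 2-unit forms. Either 2-unit form occurred in 17 of the 33 genes, in 44.2% of their windows against 15.1% of all 32851 windows, and the 3-unit form in 4 genes, in 14% of windows against 0.603% of all. Those 4 genes lie in both compartments: Hsph1 and Dnajb6 in the cytosol, Hspd1 and Hspe1 in the mitochondria. Their windows are not independent, since Hspd1 and Hspe1 share the same site and the overlapping windows of Dnajb6 and of Hsph1 hold the same match. The list was chosen by function and includes heat shock factor targets, so its share of windows with a match is not a test. A match is a description of letters and not a bound site. Dnajb1, named above as a gene with heat shock elements, had no match, so a missing match does not show that a gene lacks them. The sequences below are shown because they place the mitochondrial folding chamber next to cytosolic genes, with the units and the bases between them in capitals.
Hspe1 and Hspd1: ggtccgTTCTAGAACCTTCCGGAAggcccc
Dnajb6: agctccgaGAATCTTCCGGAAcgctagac
Hsph1: gctgcagaTTCTGGAAAGTTCt
Hspa1a: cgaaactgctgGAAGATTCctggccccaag
Hspb1: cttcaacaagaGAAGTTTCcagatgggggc
The first sequence, at chr1:55088053-55088082 on the plus strand, lies in the promoter region shared by the divergent genes Hspe1 and Hspd1, begins its capitals 89 bases before the start of Hspe1 and overlaps an annotated exon of Hspd1. The Dnajb6 sequence is at chr5:29735844-29735872 on the plus strand, 46 bases before the start, in annotated exons of Dnajb6 and Gm5129. That of Hsph1 is at chr5:149636287-149636308 on the minus strand, inside the first exon. The Hspa1a sequence, at chr17:34972242-34972271 on the minus strand, and the Hspb1 sequence, at chr5:135887791-135887820 on the plus strand, lie 104 and 117 bases before their starts, outside annotated exons, and each stretch shown holds a single pair of units.

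In proliferation medium, 4HBP cultures had higher RNA for 3 of the 8 mitochondrial genes and for 1 of the 31 cytosolic ones. The mitochondrial HSP70 Hspa9 was 1.84-fold higher, the matrix protease Lonp1 was 1.76-fold higher, the mitochondrial HSP40 Dnaja3 was 1.38-fold higher, and in the cytosol the constitutive HSP70 Hspa8 was 1.48-fold higher. The test was edgeR's quasi-likelihood test with Benjamini-Hochberg adjustment over the 14449 genes tested, and the 4 genes called are 10.3% of the 39, beside 7.43% of all genes tested, with 3.74% called higher and 3.69% lower. By compartment the shares were 37.5% of the mitochondrial and 3.23% of the cytosolic genes. Since the list was chosen with earlier results known, these shares were not tested against each other. The median log2 fold change was 0.08 over the mitochondrial genes, 0.03 over the cytosolic genes and 0.00 over all genes tested. All 39 genes passed the filter on low counts, and 9 had an unadjusted p under 0.05, beside 3621 of the 14449 genes tested.

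Hspa9 had 873, 965 and 1117 normalized CPM in the 4HBP libraries and 523, 450 and 634 in the EtOH libraries, so every 4HBP library lay above every EtOH library. The log2 fold change was 0.88 ± 0.14 (SE) with an adjusted p of 0.0100. Dnaja3, which hands unfolded proteins to Hspa9, had 63.8, 70.3 and 66.4 normalized CPM with 4HBP and 46.1, 45.3 and 54.0 with EtOH, a log2 fold change of 0.46 ± 0.09 with an adjusted p of 0.0183. These partners of the same HSP70 cycle were higher together, and again the groups did not overlap. Lonp1, the ATP-dependent protease of the matrix, had 123, 167 and 168 normalized CPM with 4HBP and 86.7, 88.6 and 85.3 with EtOH, a log2 fold change of 0.81 ± 0.11 with an adjusted p of 0.00729.

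**Figure D1:**
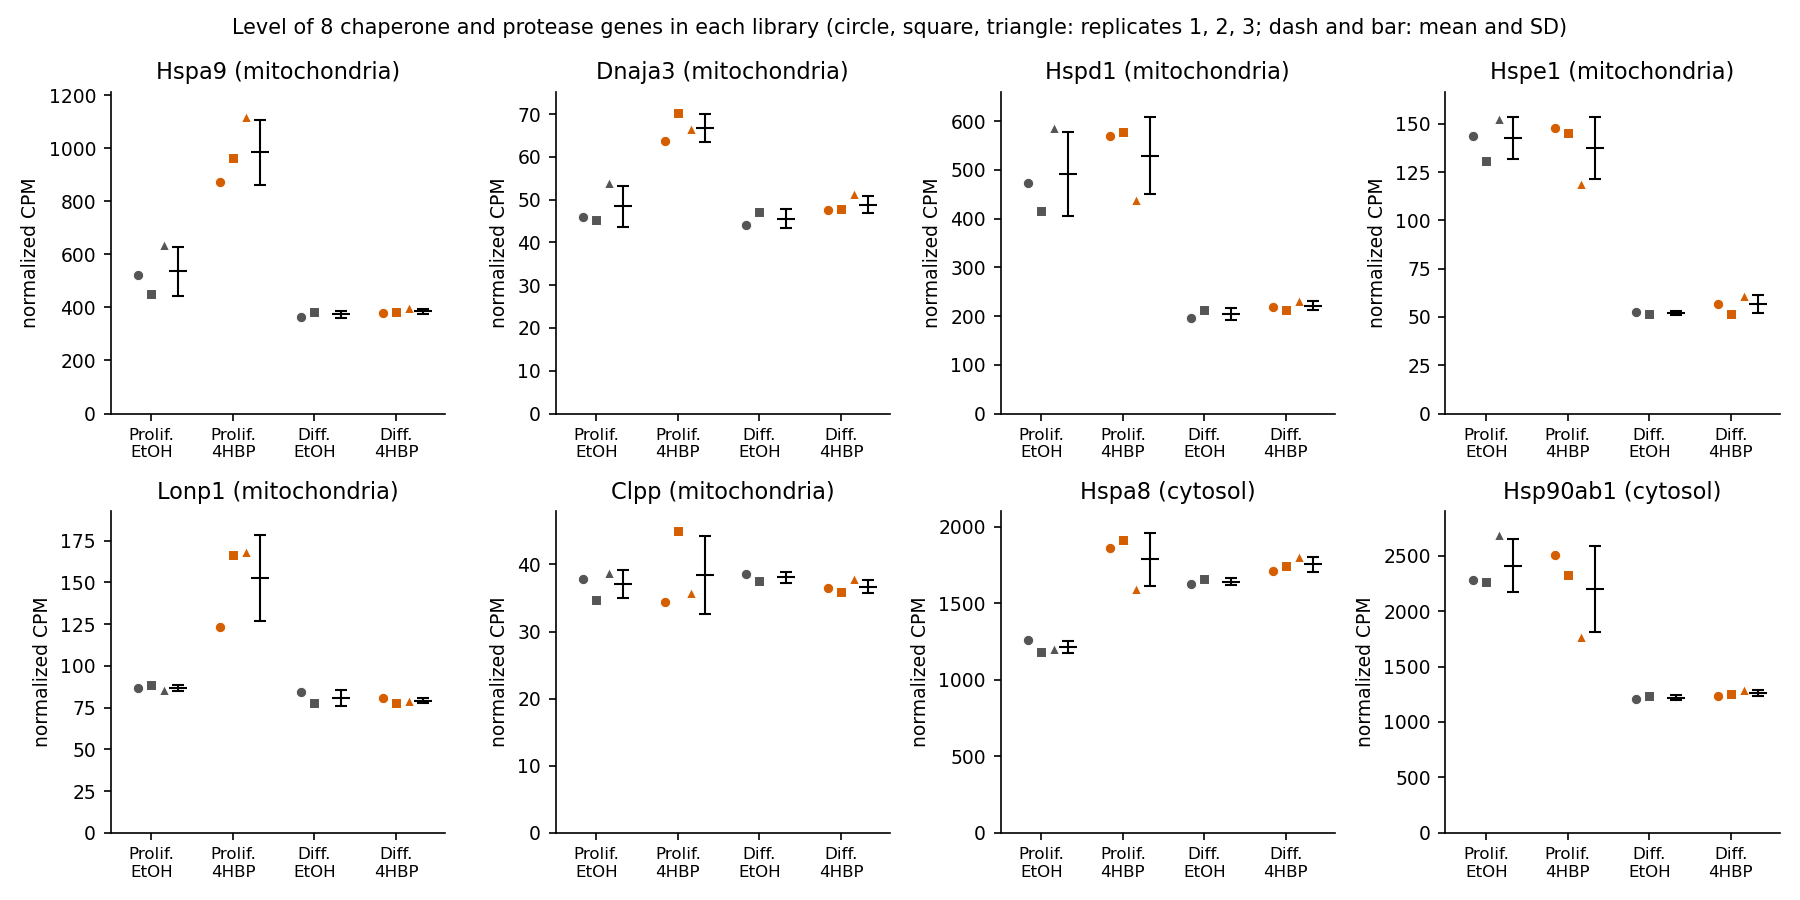
Normalized CPM of 8 genes in each library, with axes from 0, for the EtOH (grey) and 4HBP (orange) cultures in proliferation (Prolif.) and differentiation (Diff.) medium. In proliferation medium the 3 4HBP libraries lie above the 3 EtOH libraries for Hspa9, Dnaja3, Lonp1 and Hspa8, while Hspd1, Hspe1, Clpp and Hsp90ab1 overlap.

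The other 5 mitochondrial genes did not pass the test. Hspd1, the HSP60 of the folding chamber, had 570, 579 and 438 normalized CPM with 4HBP and 473, 416 and 586 with EtOH, and its log2 fold change was 0.10 ± 0.14. Its co-chaperonin Hspe1 had a log2 fold change of -0.05 ± 0.10 and the mitochondrial HSP90 Trap1 one of -0.12 ± 0.09. The pair Hspd1 and Hspe1, whose shared promoter carries the 3-unit heat shock element, thus overlapped between the groups, as did Trap1. Of the second matrix protease, the proteolytic subunit Clpp had a log2 fold change of 0.05 ± 0.11 and the unfolding subunit Clpx one of 0.03 ± 0.08. Within the mitochondria, 3 genes were called and 5 were not, with adjusted p from 0.452 to 0.846 for the latter.

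Neither Lonp1 nor Dnaja3 holds a 2-unit heat shock element in its promoter window, and neither holds the letters TGATGNAA, the core of the element bound by ATF4 with a C/EBP partner, which is found in 3.97% of all windows and in none of the 43 windows of the listed genes. Their 250 bases before the start, outside annotated exons, are given to show the promoters of the called genes for which sequence was at hand, in lower case throughout since no searched motif occurs in them.
Dnaja3: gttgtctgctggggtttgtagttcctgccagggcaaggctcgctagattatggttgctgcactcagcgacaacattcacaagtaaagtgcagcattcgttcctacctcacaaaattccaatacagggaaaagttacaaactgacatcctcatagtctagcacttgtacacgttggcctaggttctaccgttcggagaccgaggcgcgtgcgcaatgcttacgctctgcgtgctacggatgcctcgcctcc
Lonp1: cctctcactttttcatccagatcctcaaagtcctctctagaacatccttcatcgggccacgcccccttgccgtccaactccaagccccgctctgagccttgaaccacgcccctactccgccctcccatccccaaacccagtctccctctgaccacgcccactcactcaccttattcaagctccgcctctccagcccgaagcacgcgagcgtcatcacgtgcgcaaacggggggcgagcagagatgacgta
The Dnaja3 stretch is at chr16:4683820-4684069 on the plus strand and the Lonp1 stretch at chr17:56626904-56627153 on the minus strand. No match in these windows says only that the letters are not in them.

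In the cytosol, Hspa8, the constitutive HSP70 that also uncoats clathrin vesicles, had 1857, 1915 and 1590 normalized CPM with 4HBP and 1258, 1181 and 1197 with EtOH, with a log2 fold change of 0.56 ± 0.09 and an adjusted p of 0.0128. It was the only cytosolic gene called in proliferation medium by this test. The inducible HSP70 genes were at the low end in both groups: Hspa1a had 1.58, 1.58 and 2.53 normalized CPM with 4HBP and 1.19, 2.33 and 1.34 with EtOH. The groups overlapped for Hspa1a, as they did for Hspa1b and for the HSP110 gene Hsph1. Hspa2, an HSP70 best known from the testis, had 14.2, 14.6 and 18.2 normalized CPM with 4HBP and 20.2, 28.6 and 21.5 with EtOH, and its log2 fold change of -0.58 ± 0.16 did not pass, with an adjusted p of 0.0558. It passed without the third 4HBP library, at -0.70 and an adjusted p of 0.0219, and with all libraries by DESeq2 (0.0107), without a filter on low counts (0.0143) and in the fit of all 11 libraries (0.00715).

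The 5 genes of the HSP90 machine, which matures kinases and steroid receptors, had log2 fold changes from -0.13 to 0.03 and none passed, with adjusted p of 0.600 or more. Hsp90ab1 had 2505, 2322 and 1766 normalized CPM with 4HBP and 2280, 2265 and 2688 with EtOH, with wide overlap. Of the 6 HSP40 genes, the J proteins that load clients onto HSP70, none passed. Dnaja4 was the highest at 0.37 ± 0.13 and Dnajb4 the lowest at -0.24 ± 0.09, with adjusted p of 0.126 and 0.145, and the heat-inducible Dnajb1 had 34.0, 34.6 and 28.6 normalized CPM with 4HBP and 29.0, 27.8 and 27.1 with EtOH.

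The transcription factor Hsf1 had 31.1, 27.9 and 27.2 normalized CPM with 4HBP and 22.9, 23.8 and 24.4 with EtOH, with a log2 fold change of 0.28 ± 0.09 and an adjusted p of 0.0978. Its groups did not overlap, but the difference did not pass. Hspb1, the HSP27 that binds early unfolding intermediates, had 0.441, 1.40 and 0.562 normalized CPM with 4HBP and 1.71, 1.68 and 2.73 with EtOH, values that rest on few reads, and a log2 fold change of -1.34 ± 0.44 with an adjusted p of 0.0971. Hspb8 and Bag3, which together send misfolded proteins to autophagy, had log2 fold changes of -0.10 ± 0.13 and -0.23 ± 0.14. All 8 subunits of the CCT ring, which folds actin and tubulin, had positive values from 0.02 to 0.21 and none passed. Complete separation of 4HBP from EtOH libraries was seen for 10 of the 39, with 7 above and 3 below, while 31.2% of all genes tested were separated.

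The 4 calls depended on the control libraries. Without EtOH replicate 1 none of the 39 passed, with adjusted p of 0.0556 for Lonp1, 0.0631 for Hspa8, 0.0650 for Hspa9 and 0.0947 for Dnaja3; without EtOH replicate 2 Lonp1 alone passed, at 0.0438, and without 4HBP replicate 2 Hspa9 and Lonp1 passed, at 0.0358 and 0.0298, while the log2 fold changes of Lonp1 stayed between 0.74 and 0.95 and those of Hspa9 between 0.77 and 1.02 over the 6 libraries left out in turn. Without the third 4HBP library, which stood apart, the same 4 genes passed, with log2 fold changes of 0.78 for Hspa9, 0.74 for Lonp1, 0.64 for Hspa8 and 0.47 for Dnaja3. On log2(CPM + 1), limma called none of the 39, with adjusted p of 0.0540 to 0.0679 for these 4. Of the markers given above, 2 of 6 astrocyte and 0 of 6 dividing cell genes passed as lower with 4HBP, and their part in these differences was not tested.

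In differentiation medium, 4HBP and EtOH cultures differed little in chaperone RNA, with log2 fold changes from -0.32 ± 0.15 for Hspa1a to 0.15 ± 0.05 for Ahsa1. None of the 39 genes passed edgeR's quasi-likelihood test, beside 2.55% of the 15484 genes tested. An unadjusted p under 0.05 was found for 9 of the 39, beside 2460 of the 15484. DESeq2 and limma also called 0, and only without a filter on low counts did edgeR call 1, Hspa8, at an adjusted p of 0.0307. The nearest to the threshold in the main test was Hspa8, with 1713, 1742 and 1804 normalized CPM with 4HBP and 1624 and 1658 with EtOH, a log2 fold change of 0.09 ± 0.03 and an adjusted p of 0.124. Such differences were small, and so was the spread between these libraries, which may not be separate cultures. The biological coefficient of variation was 0.0368 in differentiation medium against 0.117 in proliferation medium.

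Hspa9 had 377, 383 and 396 normalized CPM with 4HBP and 364 and 384 with EtOH in differentiation medium, a log2 fold change of 0.04 ± 0.03. Lonp1 had 81.0, 77.7 and 78.8 with 4HBP and 84.3 and 77.5 with EtOH, a log2 fold change of -0.04 ± 0.05. Both genes overlapped between the groups. The median log2 fold change was 0.04 over the 31 cytosolic and 0.06 over the 8 mitochondrial genes, against 0.00 over all genes tested. Libraries of the 2 treatments were fully separated for 19 of the 39, 18 of them higher with 4HBP, beside 32.9% of all genes, among them Ahsa1, an activator of HSP90.

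**Figure D2:**
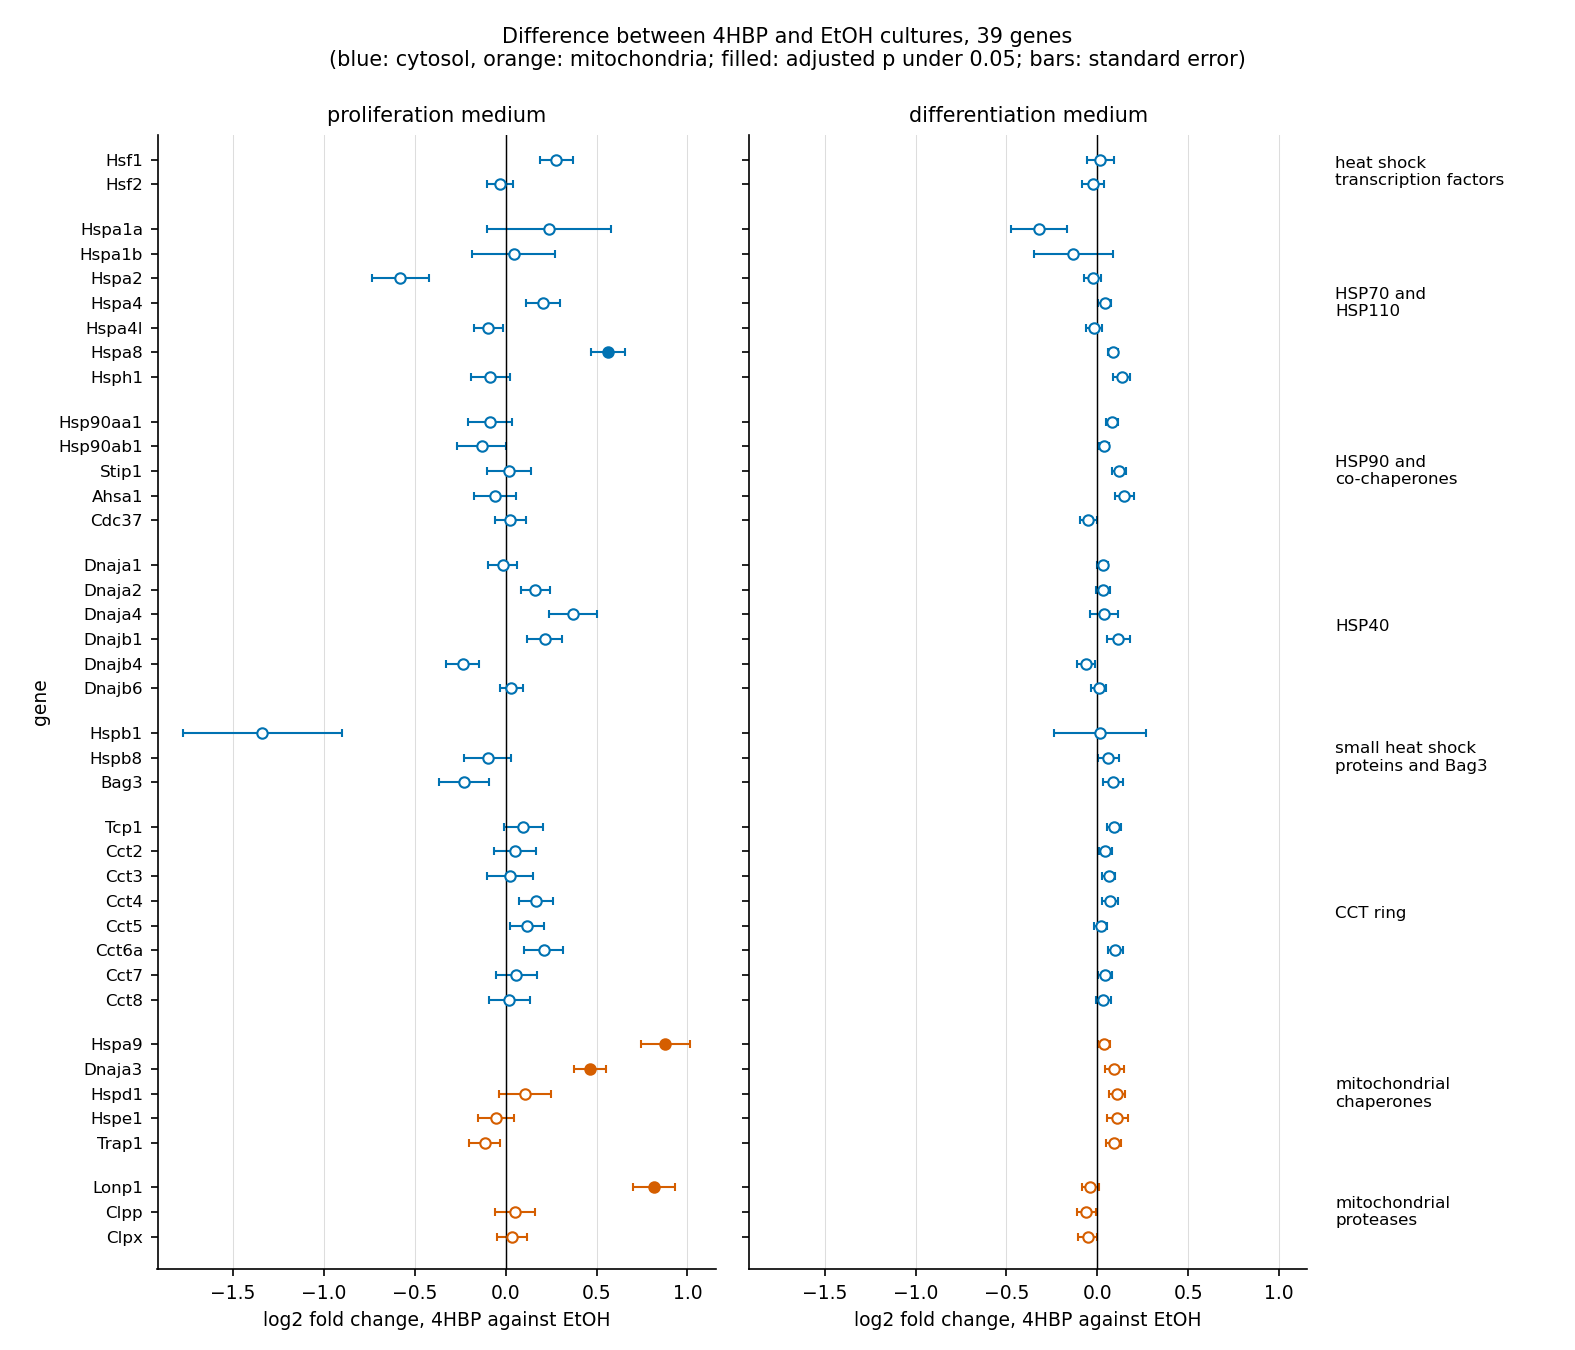
Log2 fold change of 4HBP against EtOH for the 39 genes, grouped by role, in proliferation medium (left) and differentiation medium (right), with standard errors as bars. Filled points have an adjusted p under 0.05: Hspa8, Hspa9, Dnaja3 and Lonp1 on the left, and none on the right.

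The 4HBP difference itself differed between the media for 3 genes. In a fit over all 11 libraries, the log2 fold change in proliferation medium minus that in differentiation medium was 0.85 ± 0.15 for Lonp1 (adjusted p of 0.00843 by edgeR's quasi-likelihood test), 0.83 ± 0.16 for Hspa9 (0.0149) and 0.47 ± 0.10 for Hspa8 (0.0249). These 3 genes are 7.69% of the 39, beside 4.49% of the 15920 genes tested, with 2.01% higher and 2.48% lower. Dnaja3, called in proliferation medium only, had a difference of 0.36 with an adjusted p of 0.0924, so a difference between media was not shown for it, although it passed without proliferation EtOH replicate 3 (0.45, adjusted p of 0.0162). Hspa2 likewise passed without proliferation 4HBP replicate 3 (-0.68, 0.0207) and Hspb1 without proliferation 4HBP replicate 2 (-2.03, 0.0357). Leaving out differentiation EtOH replicate 1 took away all 3 calls (adjusted p of 0.0613 for Lonp1, 0.0696 for Hspa9 and 0.139 for Hspa8), and leaving out differentiation EtOH replicate 2 took away those of Hspa9 (0.0843) and Hspa8 (0.159). Hspa8 also lost its call without any 1 of the 3 differentiation 4HBP libraries (0.0602 to 0.0797), without proliferation EtOH replicate 2 (0.0579) or without proliferation 4HBP replicate 2 (0.0596).

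Ratios of TPM within a library compare genes without any scaling between libraries. Per Hspd1 transcript, Hspa9 had 0.853, 0.920 and 1.41 in the proliferation 4HBP libraries and 0.656, 0.586 and 0.590 in the EtOH libraries. In differentiation medium the ratio was 1.26, 1.29 and 1.20 with 4HBP and 1.34 and 1.33 with EtOH. Within the mitochondria, the HSP70 thus stood higher relative to the HSP60 both with 4HBP in proliferation medium and with either treatment in differentiation medium. Lonp1 per Clpp was 1.304, 1.34 and 1.71 with 4HBP and 0.840, 0.928 and 0.802 with EtOH in proliferation medium, and 0.764 to 0.828 in all 5 differentiation libraries. In the cytosol, Hspa8 per Hsp90ab1 was 1.24, 1.39 and 1.48 with 4HBP and 0.857, 0.865 and 0.745 with EtOH in proliferation medium, and 1.63 to 1.76 in differentiation medium. In each of these 3 ratios the proliferation 4HBP libraries lay above their EtOH controls. The ratios set a gene called with 4HBP over one that was not called, in the same libraries. Their order thus largely follows from those calls and is not separate support for them. Other ratios overlapped: Hspa9 per Hspa8, across the compartments, was 0.229, 0.244 and 0.347 with 4HBP and 0.218, 0.189 and 0.258 with EtOH, and Hspd1 per Hspe1 was 1.401, 1.46 and 1.35 with 4HBP and 1.14, 1.19 and 1.43 with EtOH.

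The mitochondrial genes together took 17.6%, 18.8% and 20.6% of the TPM of the 39 genes with 4HBP in proliferation medium, and 17.0%, 16.6% and 17.8% with EtOH, a slight overlap. In differentiation medium the share was 12.3% to 12.9% in all 5 libraries.

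**Figure D3:**
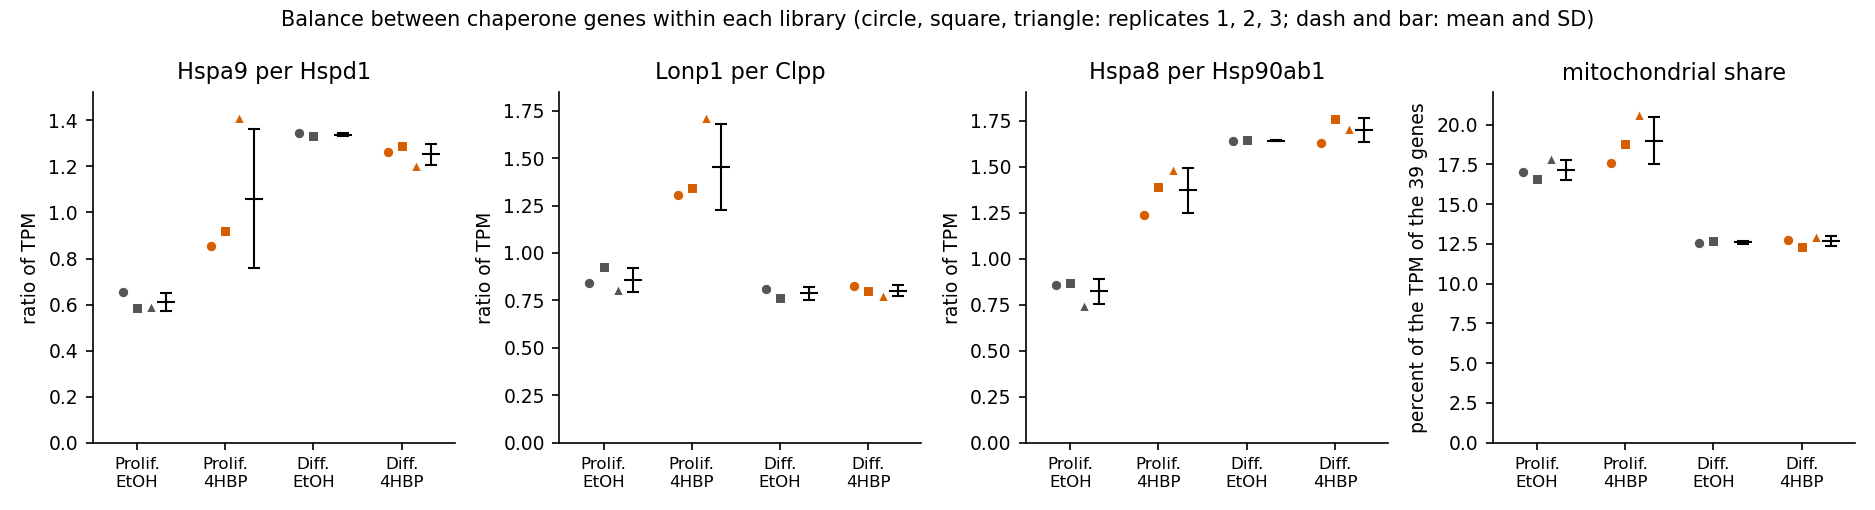
Ratios of TPM between genes of the same library (first 3 panels) and the percent of the TPM of the 39 genes held by the 8 mitochondrial ones (right), for EtOH (grey) and 4HBP (orange) cultures in both media. Lonp1 per Clpp is 1.304 to 1.71 with 4HBP in proliferation medium and 0.764 to 0.928 in every other library, and the mitochondrial share is 12.3% to 12.9% in differentiation medium against 16.6% to 20.6% in proliferation medium.

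More of these genes differed between the media than between 4HBP and EtOH. Between EtOH cultures, 29 of the 39 genes differed between differentiation and proliferation medium, 23 lower and 6 higher in differentiation medium. The mitochondrial folding chamber, the HSP90 machine and the whole CCT ring were lower, while several HSP70 genes and Hspb8 were higher. The 29 are 74.4% of the list, beside 61.4% of all genes tested (30.6% lower and 30.8% higher), in edgeR's quasi-likelihood test over all 11 libraries. In the 4HBP cultures, 32 of 39 differed, 26 lower and 6 higher, or 82.1% beside 67.2% of all genes (33.8% lower and 33.3% higher). Among the cytosolic genes 25 of 31 were called in either treatment, and among the mitochondrial genes 4 of 8 with EtOH and 7 of 8 with 4HBP, none of them higher. These calls are on the scale of normalized CPM. In deposited TPM some of the falls were absent or reversed, among them those given below for Hspa9, Clpx, Ahsa1, the CCT ring and Hsf1. The gene mt-Atp8 alone held 13.0% to 15.9% of TPM in proliferation libraries and 4.48% to 4.79% in differentiation libraries, and its part was not tested. Without regard to the test, the libraries of the 2 media were fully separated for 34 of the 39 genes with EtOH and 33 with 4HBP, beside 76.4% and 71.5% of all genes. Between the same EtOH cultures, 5 of 7 stem cell markers and 6 of 6 dividing cell markers were lower and 5 of 6 oligodendrocyte lineage markers higher in differentiation medium, and their part in these differences was not tested.

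Hspe1 had 144, 131 and 153 normalized CPM in the EtOH libraries kept in proliferation medium, against 52.7 and 51.3 in differentiation medium, a log2 fold change of -1.45 ± 0.11. Its partner Hspd1 had 473, 416 and 586 against 195 and 213, a log2 fold change of -1.27 ± 0.14. The chamber's RNAs were thus 2.74-fold and 2.41-fold lower in differentiation medium, with no overlap. In 4HBP cultures the values were -1.28 ± 0.09 and -1.26 ± 0.12. Trap1 was lower by less, at -0.61 ± 0.08 with EtOH and -0.40 ± 0.07 with 4HBP. Hspa9 fell by 0.52 ± 0.13 on the log2 scale with EtOH and by 1.35 ± 0.11 with 4HBP, and Lonp1 had -0.10 ± 0.11 (not called) and -0.95 ± 0.10, the latter from 123 to 168 normalized CPM down to 77.7 to 81.0. The gap between treatments for Hspa9 and Lonp1 is the same difference that was tested between the media above. In deposited TPM, Hspa9 overlapped between the media with EtOH, at 244, 204 and 285 in proliferation and 223 and 234 in differentiation medium. Mean TPM with EtOH went up for Lonp1, from 40.5 to 50.6, and for Clpp, from 47.5 to 64.4. With 4HBP it went down for Hspa9, from 462 to 232, and for Lonp1, from 73.3 to 48.6. Dnaja3 was called only in the 4HBP cultures, at -0.45 ± 0.07, as was Clpx at -0.19 ± 0.06 with an adjusted p of 0.0202, a call that was lost without proliferation 4HBP replicate 3 (0.0651), differentiation 4HBP replicate 2 (0.0652) or differentiation 4HBP replicate 3 (0.0603). Clpp was called in neither.

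In the HSP90 machine, Hsp90ab1 had 2280, 2265 and 2688 normalized CPM in the proliferation EtOH libraries and 1204 and 1233 in the differentiation EtOH libraries, a log2 fold change of -0.99 ± 0.12 with an adjusted p of 1.71e-05. Stip1, the adaptor that joins HSP70 to HSP90, had -0.95 ± 0.11, Hsp90aa1 -0.77 ± 0.11, the kinase co-chaperone Cdc37 -0.57 ± 0.08 and Ahsa1 -0.48 ± 0.12. In normalized CPM all 5 fell in both treatments. In the 4HBP cultures Ahsa1 was the weakest, at -0.27 ± 0.10 with an adjusted p of 0.0323, and its groups overlapped: the call was lost without proliferation 4HBP replicate 1 (0.124) or 2 (0.175), without differentiation 4HBP replicate 2 (0.121) or 3 (0.0700), and without differentiation EtOH replicate 1 (0.0580) or 2 (0.0578), which enter through the shared spread. In deposited TPM the mean of Ahsa1 rose with 4HBP, from 95.0 to 99.2, and fell with EtOH, from 96.9 to 90.8. The mean TPM of Hsp90ab1, Stip1, Hsp90aa1 and Cdc37 fell in both treatments. In normalized CPM the 8 CCT subunits fell together, by 0.33 to 0.56 on the log2 scale with EtOH and by 0.42 to 0.56 with 4HBP. On that scale each group of libraries lay below its proliferation counterpart for every subunit. In deposited TPM they did not all fall between EtOH cultures. The mean TPM went from 235 to 206 for Cct5, from 210 to 211 for Cct2 and from 102 to 110 for Cct4. In the EtOH cultures the call for Cct6a was lost without differentiation EtOH replicate 1 (0.103) or 2 (0.0563), and that for Cct4 without replicate 2 (0.0653).

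The HSP70 family split. Hspa1a had 1.19, 2.33 and 1.34 normalized CPM in the proliferation EtOH libraries and 8.33 and 7.52 in the differentiation EtOH libraries, a log2 fold change of 2.29 ± 0.28 with an adjusted p of 1.27e-05, and 1.74 ± 0.26 in the 4HBP cultures. Hspa2 went from 20.2, 28.6 and 21.5 to 54.2 and 55.04 with EtOH, 1.22 ± 0.13 on the log2 scale, and rose by 1.78 ± 0.12 with 4HBP. Both genes were higher in differentiation medium in every library, and even there Hspa1a had only 4.96 ± 0.375 TPM (SD, n = 2) against 1499 ± 17.9 TPM for Hspa8. Hspa8 rose by 0.44 ± 0.08 between EtOH cultures, while in the 4HBP cultures its log2 fold change was -0.03 ± 0.07, with 1590 to 1915 normalized CPM in proliferation and 1713 to 1804 in differentiation medium. Without the third proliferation 4HBP library the latter was called, at -0.11 with an adjusted p of 0.0433. The HSP110-type nucleotide exchange factors Hspa4 and Hspa4l, which recharge HSP70, went the other way, at -0.26 ± 0.09 and -0.45 ± 0.08 with EtOH and -0.42 ± 0.08 and -0.36 ± 0.07 with 4HBP. The HSP110 gene Hsph1 did not fall in either treatment, as given below.

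**Figure D4:**
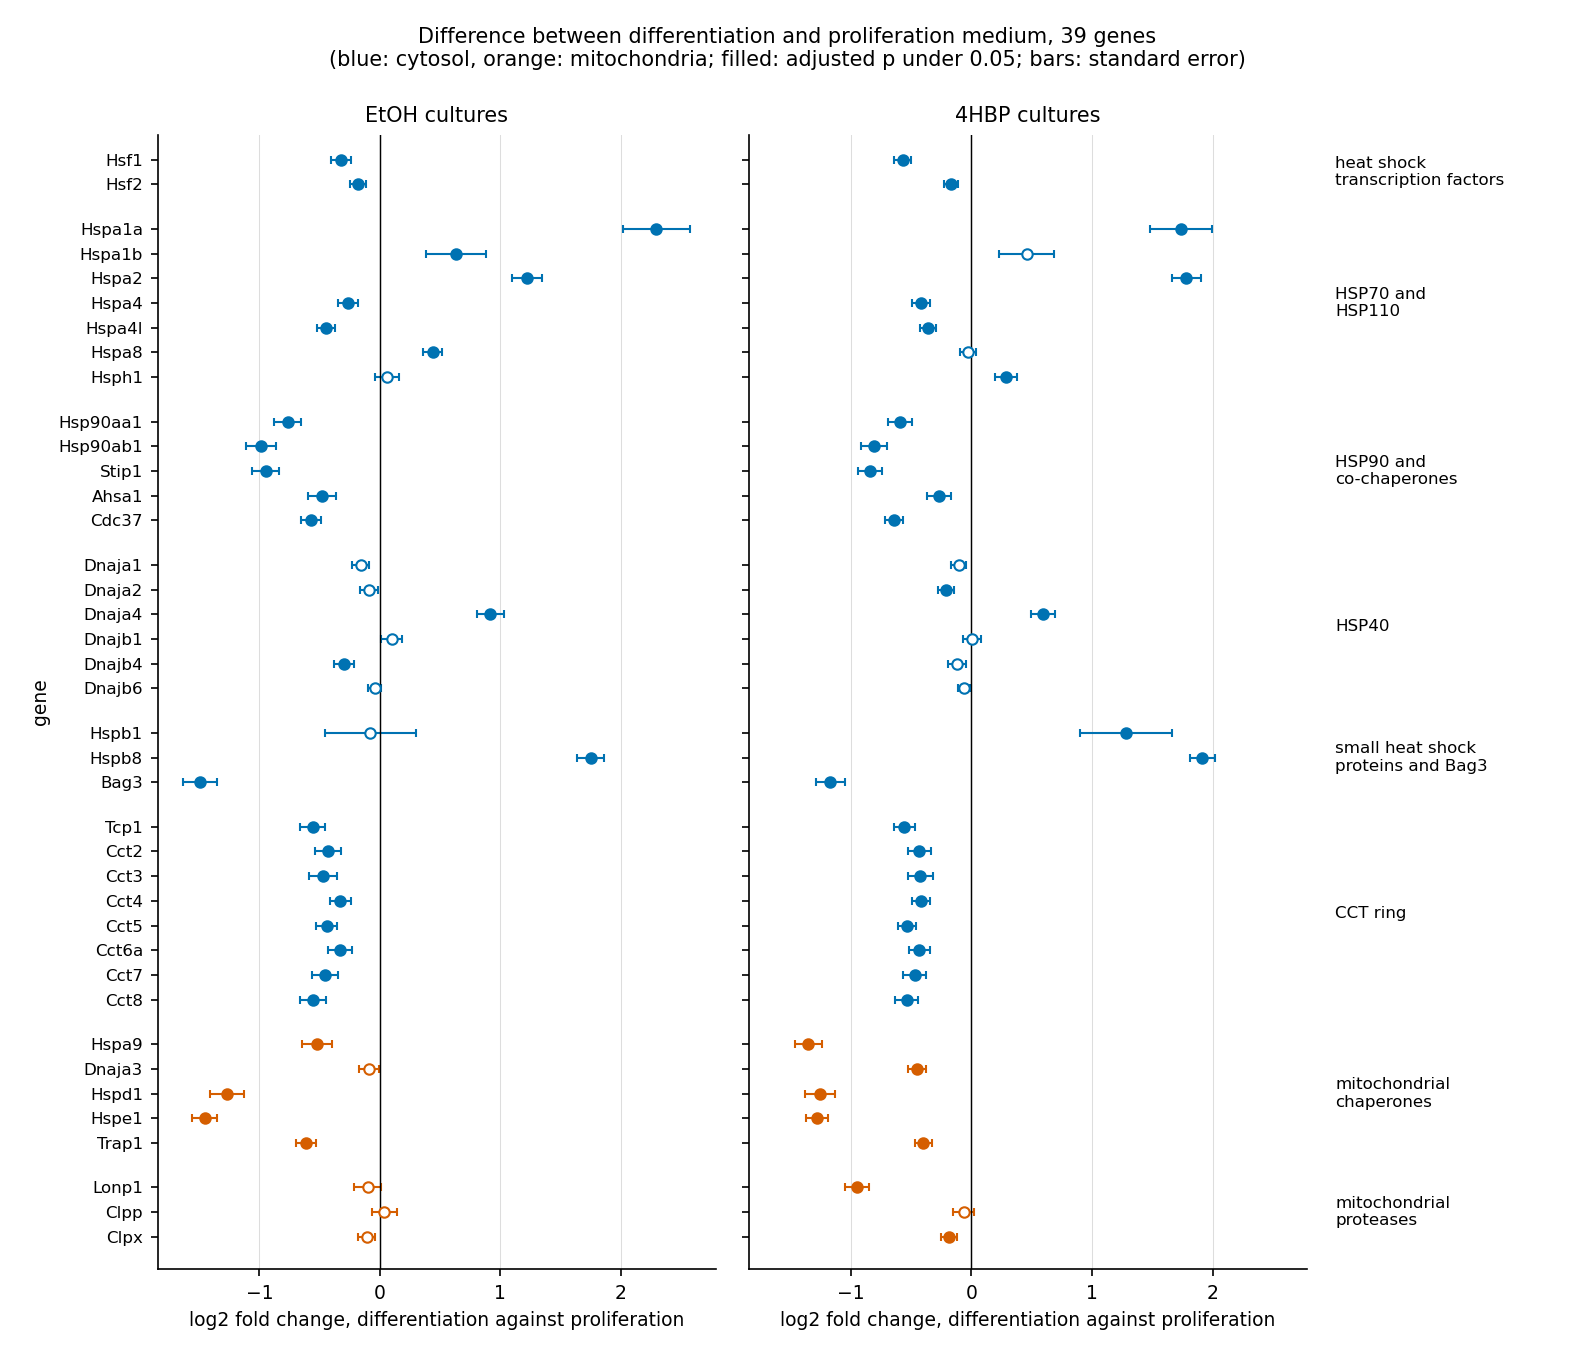
Log2 fold change of differentiation against proliferation medium for the 39 genes, grouped by role, in EtOH (left) and 4HBP (right) cultures, with standard errors as bars and filled points for an adjusted p under 0.05. All 5 HSP90 genes and all 8 CCT genes lie below 0 in both panels, and Hspa9 and Lonp1 lie further below 0 on the right (-1.35 and -0.95) than on the left (-0.52 and -0.10).

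Hspb8 and Bag3, partners in the same autophagy complex, moved in opposite directions. Hspb8 had 24.6, 24.6 and 33.4 normalized CPM in the proliferation EtOH libraries and 99.5 and 85.7 in the differentiation EtOH libraries, a rise of 1.75 ± 0.11 with an adjusted p of 4.57e-08, and rose by 1.91 ± 0.11 with 4HBP. Bag3, which bridges Hspb8 and HSP70, had 96.6, 113 and 128 against 42.1 and 37.8, a log2 fold change of -1.49 ± 0.14, and -1.17 ± 0.12 with 4HBP. The ratio of the small chaperone to its bridge thus changed in both treatments, without overlap for either gene. Hspb1 had a log2 fold change of -0.08 ± 0.38 between the EtOH cultures, not called, and was called in the 4HBP cultures at 1.28 ± 0.38 with an adjusted p of 0.00914, from 0.441 to 1.40 normalized CPM up to 1.52 to 2.28. The test of the difference between treatments, the same as that between the media above, gave an adjusted p of 0.183, so the change was not shown to differ between EtOH and 4HBP cultures.

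Among the HSP40 genes, Dnaja4 rose by 0.92 ± 0.11 with EtOH and by 0.59 ± 0.10 with 4HBP, and Dnajb1 and Dnajb6 were called in neither treatment. Dnajb4 fell with EtOH, at -0.30 ± 0.08 and an adjusted p of 0.00670, a call lost without differentiation EtOH replicate 1 (0.0524) or 2 (0.0580). With 4HBP its value was -0.12 ± 0.07, not called, and the treatments were not shown to differ (adjusted p of 0.388 for the difference). Dnaja2 fell with 4HBP, at -0.21 ± 0.06 and an adjusted p of 0.0113, a call lost without proliferation 4HBP replicate 2 (0.0597). With EtOH its value was -0.09 ± 0.07, not called, and again the difference did not pass (0.533). Dnaja1 had -0.16 ± 0.07 with EtOH and an adjusted p of 0.0562, which passed without proliferation 4HBP replicate 1 (0.0321) or 3 (0.00816), and in the 4HBP cultures it passed without replicate 3 of proliferation medium (0.00341). Hsf1 fell by 0.32 ± 0.08 with EtOH, a call lost without differentiation EtOH replicate 2 (0.0767), and by 0.57 ± 0.07 with 4HBP.

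Some further calls between media depended on single libraries. Hsf2, the second heat shock factor, was lower by 0.18 ± 0.07 with EtOH and 0.17 ± 0.06 with 4HBP on the log2 scale, and was lost with EtOH without proliferation EtOH replicate 1 (0.0725) or differentiation EtOH replicate 1 (0.0582) or 2 (0.243), and with 4HBP without proliferation 4HBP replicate 1 (0.0557) or differentiation 4HBP replicate 1 (0.0788) or 3 (0.0953). Scaling to library totals alone also ended both Hsf2 calls, at adjusted p of 0.265 and 0.0979. Hspa1b rose by 0.63 ± 0.25 with EtOH, with an adjusted p of 0.0417. That call was lost without proliferation EtOH replicate 1 (0.0809) or 3 (0.115), differentiation EtOH replicate 1 (0.187) or 2 (0.0765), or differentiation 4HBP replicate 1 (0.0551). With 4HBP it had 0.46 ± 0.23, not called with all libraries and called at 0.0249 without differentiation 4HBP replicate 3. The Hspa4 call in the EtOH cultures was lost without proliferation EtOH replicate 3 (0.0630) or differentiation EtOH replicate 1 (0.123) or 2 (0.0864). Hsph1 was called in the 4HBP cultures, at 0.29 ± 0.09 with an adjusted p of 0.0138, and not without differentiation 4HBP replicate 3 (0.0548). In the EtOH cultures its value was 0.06 ± 0.10, and the treatments were not shown to differ (0.387).

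Beyond the 39 genes, lists of other cytosolic and other mitochondrial quality control genes were read in the same fits. Of 54 further cytosolic genes, 49 were tested in proliferation medium and 1 was called with 4HBP, the HSP90 co-chaperone Chordc1 at 0.33 ± 0.08 with an adjusted p of 0.0440, a call that held in 0 of the 6 fits with 1 library left out (0.0585 to 0.172). In differentiation medium 1 of 50 was called, the small heat shock protein Hspb6 at 0.22 ± 0.05 with an adjusted p of 0.0271, which held in 1 of 5 such fits. Over all genes tested, 7.43% were called with 4HBP in proliferation medium and 2.55% in differentiation medium. Of 31 further mitochondrial genes, which include the import machinery, processing peptidases and inner membrane proteases, 1 was called in proliferation medium, beside the same 7.43%. That gene was Atf5, a transcription factor known for the mammalian mitochondrial unfolded protein response and as a target of the integrated stress response. No import, peptidase or protease gene of that list passed.

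Atf5 had 346, 395 and 487 normalized CPM with 4HBP in proliferation medium and 117, 93.2 and 121 with EtOH, a 3.72-fold difference with a log2 fold change of 1.89 ± 0.14 and an adjusted p of 8.82e-04. In differentiation medium it had 250, 225 and 256 with 4HBP and 296 and 272 with EtOH, a log2 fold change of -0.23 ± 0.05 with an adjusted p of 0.0207. The groups did not overlap in either medium, and they lay in opposite orders, the difference between the media being 2.12 ± 0.18 with an adjusted p of 1.2e-04. The call in proliferation medium held in 6 of 6 fits with 1 library left out, with log2 fold changes of 1.75 to 2.00, while that in differentiation medium was lost without 4HBP replicate 2 (0.0690) or EtOH replicate 1 (0.351). Between media, 29 of 51 other cytosolic genes were lower in differentiation medium with EtOH and 30 of 51 with 4HBP, against 6 and 9 higher. Of the other mitochondrial genes 12 and 14 of 31 were lower, against 4 higher in each. Atf5 was among those higher with EtOH and among those lower with 4HBP. Among all genes tested, 30.6% and 33.8% were lower and 30.8% and 33.3% higher.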

How the data were processed

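RNA of mouse hippocampal NSCs was sequenced as 11 libraries in 4 groups with a stranded poly(A) kit. Per the labels and the study's methods, the authors trimmed the reads with cutadapt, aligned them with Bowtie2 2.2.9 to mm10 and deposited, per gene and library, expected counts from RSEM 1.3.0 together with TPM and FPKM values. Whether the counting used strand is not given in the sources used here. FPKM was not used. The deposited expected counts were rounded to whole numbers and tested, and deposited TPM was used to compare levels between genes and ratios within a library.

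Of the 53801 gene IDs, 99.7% matched a symbol. Genes with low counts were removed with filterByExpr, libraries were scaled by TMM, and edgeR 4.0.16 (R 4.3.3) quasi-likelihood tests were fitted over all genes passing the filter, with Benjamini-Hochberg adjustment and a threshold of 0.05. The 4HBP and EtOH cultures of each medium were fitted separately, since the spread between replicates differed between media, and the difference between media and the medium comparisons were fitted over all 11 libraries. Normalized CPM is the count divided by the TMM-scaled library size and expressed as CPM. The alternatives were library totals, no filter, DESeq2 1.42.0, limma 3.58.1 on log2(CPM + 1), voom with a weight for each medium, a replicate block, other sets of libraries, and each library left out in turn. No 2 libraries agreed within sampling noise. The fits were also run on simulated data with the same spread in every library of a comparison. A spread that differs between the media was therefore not simulated. All 39 genes could be named, and of each further list at most the 3 largest called changes in each direction. The genes, lists and tests were chosen with earlier results of these data known. Promoters were searched in RefSeq windows (GRCm38.p6).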

Additional observations from a re-analysis of the deposited data

Results flagged for a closer look

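For 4 genes the difference between 4HBP and EtOH cultures itself differed between the media, as tested by an interaction term over all 11 libraries with edgeR's quasi-likelihood test. The log2 fold change in proliferation medium exceeded that in differentiation medium by 0.47 ± 0.10 for the cytosolic HSP70 Hspa8 (adjusted p of 0.0249), by 0.83 ± 0.16 for the mitochondrial HSP70 Hspa9 (0.0149), by 0.85 ± 0.15 for the matrix protease Lonp1 (0.00843) and by 2.12 ± 0.18 for the transcription factor Atf5 (1.2e-04). In proliferation medium each of the 4 genes was higher in all 3 4HBP libraries than in all 3 EtOH libraries. With 1 library left out, the call held in 4 of 11 fits for Hspa8, 9 of 11 for Hspa9, 10 of 11 for Lonp1 and 11 of 11 for Atf5.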

How the results depend on the processing

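No direction was reversed for a called gene under any alternative. In proliferation medium, 4 of the 39 genes were called with 4HBP by the main test, against 0 by limma on log2(CPM + 1) and 9 when all 11 libraries shared 1 fit, where Hsf1, Hspa2, Dnaja4, Dnajb4 and Hspb1 were added, and 0 to 5 with 1 library left out. In differentiation medium the count of 0 became 1 without a filter on low counts and stayed at 0 with each library left out. For the difference between media, the count of 3 became 5 without a filter, 1 by limma and 1 with a replicate block, and was 0 to 4 with 1 library left out. The replicate numbers were not taken as pairs in the main test, and the sources do not say whether they pair samples. Over genes, the deviations of same-numbered 4HBP and EtOH libraries from their group means correlated at -0.103 to 0.0576. With the block, 534 of all genes were called in proliferation medium against 1074, 745 against 395 in differentiation medium and 156 against 715 for the difference. Scaling to library totals moved the medians for differentiation against proliferation medium in EtOH cultures to -0.23 for the cytosolic and -0.23 for the mitochondrial genes, and with 1 library left out they ranged from -0.34 to -0.24 and from -0.38 to -0.26. Over all genes tested, limma called 18 in proliferation medium, 0 in differentiation medium and 264 for the difference, DESeq2 called 1623, 277 and 1078, the fit without a filter 1546, 778 and 1616, and the fit of all 11 libraries 2668 and 0 for the first 2 comparisons; with 1 library left out the counts were 107 to 1429, 77 to 288 and 124 to 1100. Between media, library totals or limma also ended calls of Hspa4 with EtOH (0.0617 and 0.121) and of Ahsa1 (0.0510 and 0.135) and Clpx (0.0929 and 0.141) with 4HBP, limma ended those of Hspa9 (0.0576), Cct4 (0.0763) and Cct6a (0.0926) with EtOH, and DESeq2 (0.0543) and the replicate block (0.0930) ended that of Hspa1b with EtOH. The cause of these changes was not tested. Levels of Hspa1a, Hspa1b and Hspb1 rest on few reads.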

Other observations

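The 8 subunits of the CCT ring, which are present in equal number in the assembled chaperonin, had mean TPM from 115 (Cct4) to 261 (Cct5) in proliferation 4HBP cultures and from 102 (Cct4) to 235 (Cct5) in the EtOH cultures, a 2.27-fold and 2.30-fold span. In differentiation medium the span was 1.94-fold with 4HBP, from 115 (Cct4) to 223 (Cct6a), and 1.92-fold with EtOH, from 110 (Cct4) to 211 (Cct2). Cct4 had the lowest mean of the ring in all 4 groups.

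The inducible HSP70 genes Hspa1a and Hspa1b together had 0.0958% to 0.169% of the TPM of Hspa8 in proliferation 4HBP libraries and 0.144% to 0.217% in the EtOH libraries, against 0.345% to 0.455% and 0.456% to 0.521% in differentiation medium.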
